A study of Mus musculus with 6 samples.

Results

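Transient receptor potential (TRP) channels pass cations into sensory neurons in response to heat, cold and irritant chemicals. The 9 genes described here are Trpv1, Trpv2, Trpa1, Trpm8, Trpm2, Trpm3, Trpm7, Trpc1 and Trpc6, out of 27998 genes in a single-cell RNA table of mouse dorsal root ganglion (DRG) neurons. They were taken by name, and all 9 had a row. The study compared 3 groups of 2 mice, each with 1 female and 1 male. Mice 654 and 657 were Ttpa-/- on a vitamin E deficient diet at 6 months of age, 670 and 671 were Ttpa-/- on a vitamin E supplemented diet at 6 months, and 698 and 699 were Ttpa+/+ (wild type) on a basal diet at 5 months. Ttpa encodes the liver protein that returns vitamin E to the blood. All wild type mice were younger and on the basal diet, so that genotype, age and diet cannot be told apart in a comparison with them. The labels name neither the strain nor the deleted part of the gene. Mice 654, 671 and 698 were female.

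TRPV1 opens to noxious heat and to capsaicin, and it is the classic channel of peptidergic pain fibres. TRPA1 opens to mustard oil and other reactive electrophiles, including products of lipid oxidation, which vitamin E limits. TRPM8 opens to cooling and menthol, and TRPM3 and TRPM2 to warmth and heat. TRPV2 responds to very high heat in heterologous cells, TRPM7 is a channel fused to a kinase that is present in most cell types, and TRPC1 and TRPC6 are canonical channels linked to phospholipase C signalling.

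After filters 21024 of 21685 cells were kept, and 20886 of them fell into 20 neuron clusters. Each mouse gave between 2788 and 3920 neurons, with a median of 2511.5 to 4947 unique molecular identifiers (UMIs, counted transcripts) per neuron. All 13 pan-neuronal markers were detected, with a summed level of 13045 to 14183 CPM (UMI counts scaled to a common library total) per mouse. Markers of satellite glia (8 of 8 genes, 683 to 1253 CPM) and Schwann cells (11 of 11, 1489 to 1561 CPM) were also present among neurons, and 261 barcodes occurred in more than 1 library (522 cells). Clusters were named from marker sets without any TRP gene, and TRP genes were left out of the clustering. PEP denotes 5 peptidergic clusters, NP1 and NP2 non-peptidergic clusters (Mrgprd-type and a second type), NP3 the Sst and Nppb itch neurons, TH the Th-type low-threshold C-fibres and NF the 4 clusters of large myelinated neurons. The NP2 name rests on 3 markers (Mrgpra3, Mrgprb4 and Gfra1), none of them among the leading genes of its 1 cluster, number 15. The summed NP2 markers were 351 CPM in cluster 15 and 670 CPM in the unnamed cluster 7, and NP1 markers were 929 CPM in cluster 15, so the name is uncertain and NP2 below means cluster 15. Clusters 7 (led by Mrgpra3), 18 (led by Foxp2) and 19 (led by Dcn) stayed unnamed. Levels below are CPM of the UMIs summed per mouse, given as mean ± SD over 6 mice. They are compared between cell classes for 1 gene at a time, since UMI levels of different genes also depend on how well each transcript is captured. Classes came from clustering the same cells, so differences between classes are descriptions without a test.

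The number of clusters with UMIs in all 6 mice differed between the 9 genes, and it depends in part on each gene's total, from 20 neuronal UMIs for Trpm8 to 4771 for Trpv1. Trpc1 had UMIs in all 6 mice in 20 of 20 neuron clusters, Trpm7 in 19 and Trpv2 in 18. Trpa1 had them in 14 clusters, Trpm2 in 12, Trpv1 in 11 and Trpm3 in 9. Trpc6, with 163 UMIs, met this in 2 clusters and Trpm8 in 0. Trpv1 had more UMIs than Trpc1 (4771 against 2213) and met it in fewer clusters. The 250 bases before the RefSeq start (GRCm38.p6) are shown for the gene with the fewest UMIs, a gene concentrated in some clusters and a gene found in nearly all, to set the expression beside the start region. CG dinucleotides are in capitals, which many broadly expressed genes carry at high density.
Trpm8, chr1:88306485-88306734, + strand: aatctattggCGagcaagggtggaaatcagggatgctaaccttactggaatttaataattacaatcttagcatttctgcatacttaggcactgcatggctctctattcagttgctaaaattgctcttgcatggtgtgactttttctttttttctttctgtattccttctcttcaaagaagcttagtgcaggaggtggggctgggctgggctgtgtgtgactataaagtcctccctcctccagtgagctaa
Trpv1, chr11:73233899-73234148, + strand: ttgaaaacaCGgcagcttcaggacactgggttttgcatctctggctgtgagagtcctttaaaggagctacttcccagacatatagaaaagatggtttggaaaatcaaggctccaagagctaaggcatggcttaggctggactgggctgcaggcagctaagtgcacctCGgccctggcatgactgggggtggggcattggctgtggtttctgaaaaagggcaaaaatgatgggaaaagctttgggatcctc
Trpm7, chr2:126876262-126876511, - strand: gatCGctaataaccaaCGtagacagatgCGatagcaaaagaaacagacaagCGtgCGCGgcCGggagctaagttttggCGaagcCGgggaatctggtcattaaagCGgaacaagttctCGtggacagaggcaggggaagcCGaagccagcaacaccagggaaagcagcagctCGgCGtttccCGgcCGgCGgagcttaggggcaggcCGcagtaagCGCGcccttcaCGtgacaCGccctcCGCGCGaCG
The Trpm8 window lies inside the gene as GENCODE annotates it. It held 1 CG, the Trpv1 window 2 and the Trpm7 window 26, against a median of 6 over 32851 promoter windows of the same length. Of all windows, 81.2% held more CG than that of Trpm8 and 8.56% held more than that of Trpm7. The other members did not follow the same order. Trpv2, found in 18 clusters, had 2, 2 and 5 CG in its 3 windows, and Trpm3, found in 9, had 17 and 9 in its 2. Trpc1 had 17, Trpc6 12 and Trpm2 10, so that CG count did not sort the 8 matched genes by their number of clusters.

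**Figure D1:**
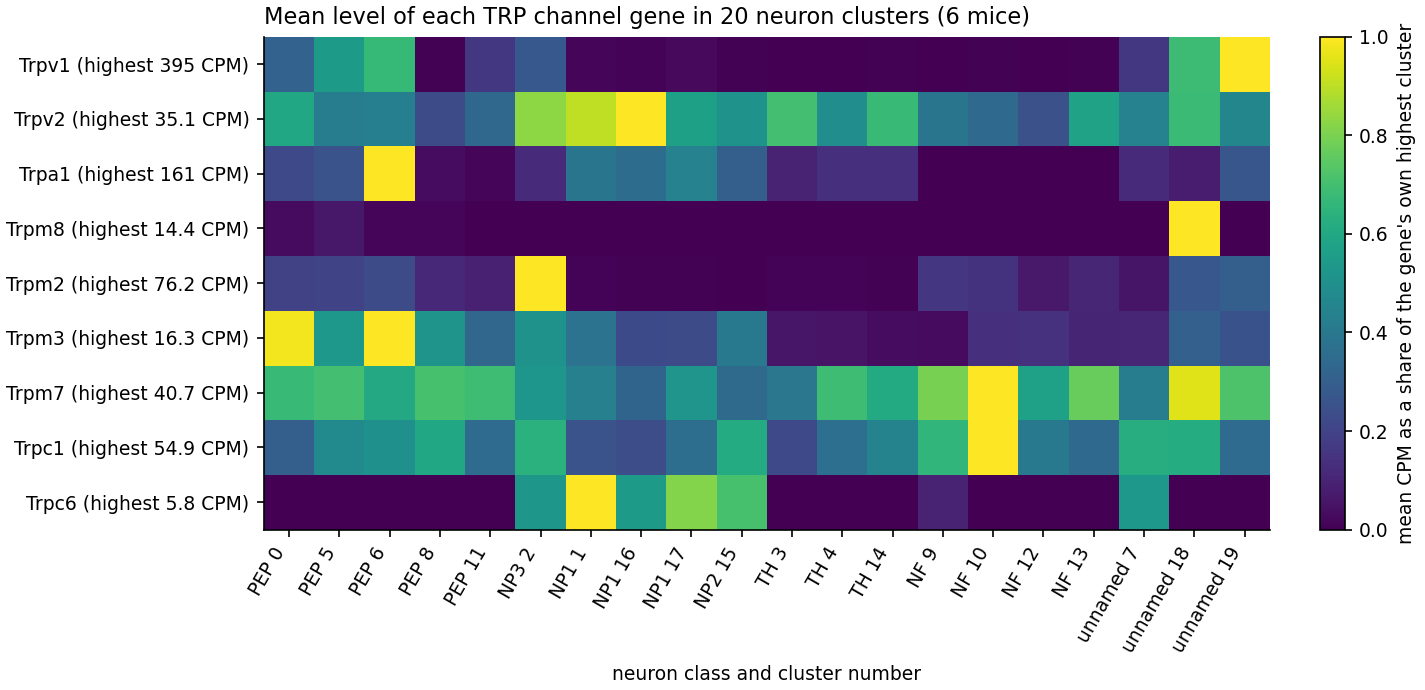
Mean CPM over 6 mice of each TRP gene (rows) in each of 20 neuron clusters (columns, named by class and cluster number), coloured as a share of that gene's own highest cluster, whose value stands beside the gene. Trpv1, Trpm2, Trpm8 and Trpc6 are concentrated in a few columns, whereas Trpv2, Trpm7 and Trpc1 are coloured in nearly every column.

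Trpv1, the heat and capsaicin channel (GRCm38, chromosome 11, 73234292 to 73261242, + strand), gave 4771 UMIs in neurons. Of these 61.9% came from PEP clusters and 15.2% from NP3 neurons. Its level was 132 ± 20.1 CPM in PEP, 109 ± 12.7 in NP3 and 64.5 ± 10.6 in cluster 7. It was 7.40 ± 2.04 CPM in NP1, 3.06 ± 1.34 in NP2, 1.40 ± 1.42 in TH and 1.19 ± 0.98 in NF neurons. The ranges over mice did not overlap between NP3 and cluster 7, between cluster 7 and NP1, or between NP1 and NP2. PEP and NP3 overlapped, as did NP2, TH and NF in neighbouring pairs. A Trpv1 UMI was found in 29.8% of PEP cells (median 2443 UMIs per cell) and in 0.717% of the deeper NF cells (median 5166), and with cells thinned to 1500 UMIs the shares were 18.8 ± 1.57% and 0.203 ± 0.16%.

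Within PEP the 5 clusters differed far more than the mice did. In cluster 6, led by Slc5a7, Gal and Cartpt, Trpv1 was 335 and 251 CPM in the deficient mice 654 and 657, 276 and 301 in the supplemented mice 670 and 671, and 205 and 223 in the wild type mice 698 and 699. Both wild type mice lay below all 4 Ttpa-/- mice in this cluster. The share of all genes with such an order is not given, so the order is a description. Cluster 5, led by Fgg, Lef1 and Tac1, held 215 ± 23.9 CPM, and cluster 0, led by Sstr2 and Zcchc12, held 124 ± 18.8. Cluster 11 (Smr2, Htr3a) held 64.2 ± 10.9 CPM. Cluster 8 (Fam19a1, Kit, Prokr2) held 2.21 ± 2.18 CPM, a level at which NP2, TH and NF neurons also lay. Calca, Kit and Chrna3 were among the markers that placed cluster 8 in PEP.

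The highest mean Trpv1 levels of all were in 2 small unnamed clusters, which cluster 6 overlapped. Cluster 19 (339 cells) held 395 ± 74.6 CPM, with every mouse between 297 and 484, and its leading gene Dcn is a fibroblast marker. PEP markers (9 of 9) summed to 5023 to 7493 CPM per mouse in this cluster, against 3161 to 4107 CPM over all neurons. Its pan-neuronal markers (12 of 13) summed to 10953 to 12125 CPM. Fibroblast markers summed to 458 to 1184 CPM per mouse there (4 of 6 genes detected, Col3a1 and Pdgfra at 0) against 9.37 to 39.2 CPM over all neurons, and their part in the Trpv1 level was not tested. Cluster 18 (345 cells) held 270 ± 116 CPM, from 102 in mouse 699 to 405 in mouse 698. Satellite glia markers (8 of 8) summed to 750 to 3374 CPM in cluster 18, and Schwann cell markers (11 of 11) to 1609 to 3757 CPM.

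**Figure D2:**
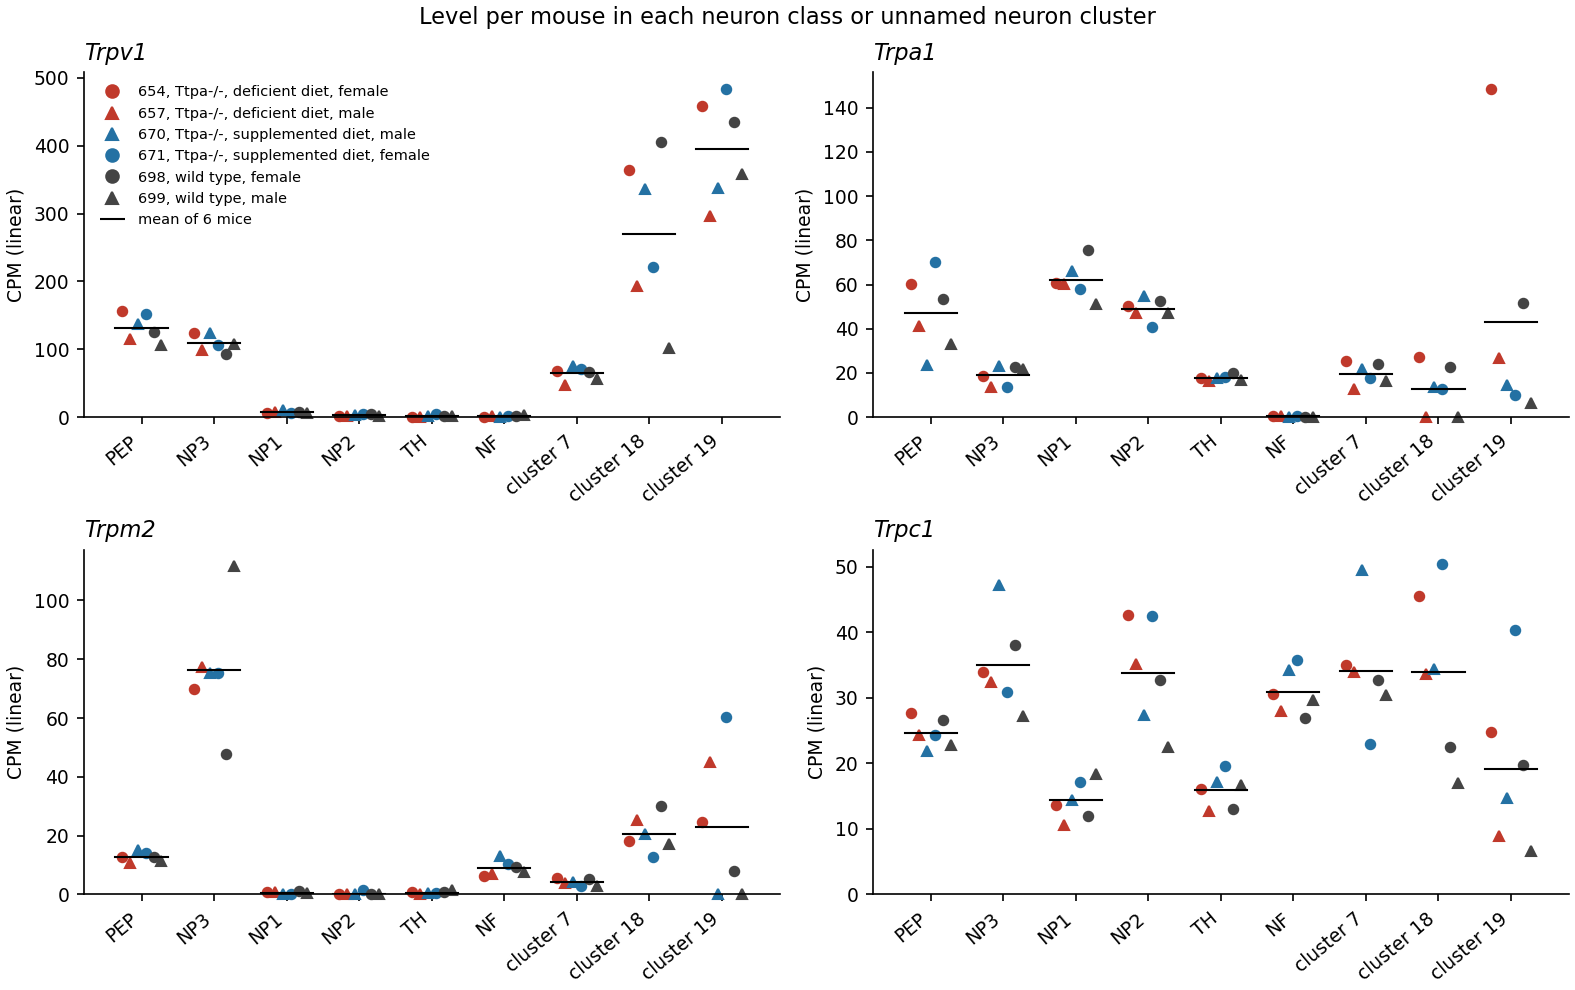
CPM per mouse (linear axes starting at 0) of Trpv1, Trpa1, Trpm2 and Trpc1 in 6 neuron classes and 3 unnamed clusters, with circles for females, triangles for males, a colour per group and a line at the mean of 6 mice. Trpv1 is highest in clusters 18 and 19, Trpm2 in NP3, and Trpc1 is above 0 in every class and mouse.

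Trpm8, the cold and menthol channel (chromosome 1, 88277661 to 88389293, + strand), was close to undetected, with 22 UMIs in 22 of 21685 cells. Of the 20 in kept cells, 11 lay in the Foxp2-led cluster 18, 9 in 4 PEP clusters and 0 in NP1, NP2, NP3, TH and NF. In NP1, a count of 0 in 3071 cells allows a share of up to 0.0977% of cells with a UMI. By mouse, Trpm8 in cluster 18 was 0 and 16.8 CPM in deficient, 27.5 and 25.2 in supplemented and 0 and 17.0 in wild type mice. Each group but the supplemented had a mouse at 0, at 20 to 98 cells per mouse. Trpm8 did not pass the low-count filter, and without the filter edgeR gave a supplemented minus wild type difference of 2.10 ± 1.32 there (adjusted p = 0.997), so that no difference was detectable at this depth.

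In cluster 18, Trpv1 was lower in cells with a Foxp2 UMI than in cells without one. Foxp2 was among the 4 genes listed as cold neuron markers. Of these, 3 were detected in cluster 18 and Kcnk9 had no UMIs, and the cluster did not take the cold neuron name. Foxp2 UMIs were used to divide the cluster, a split made after its leading genes were seen. Of 131 cells with a Foxp2 UMI, 9 (6.87%) had a Trpm8 UMI and 15 (11.5%) a Trpv1 UMI, at a median of 2365 UMIs per cell. Of 214 cells without one, 2 (0.935%) had a Trpm8 UMI and 90 (42.1%) a Trpv1 UMI, at a lower median of 1679.5 UMIs. Pooled over mice, Trpv1 was 79.2 CPM in the first set and 469 CPM in the second, and it was lower in the first set in 6 of 6 mice. Trpm8 was less even over mice. It was higher in the first set in mice 670, 671 and 699, lower in mouse 657 (13.8 against 21.6 CPM) and 0 in both sets in mice 654 and 698. A Trpv1 UMI was found in 0 of the 11 Trpm8 cells of this cluster and in 3 of all 20.

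Trpa1, the irritant channel (chromosome 1, 14872648 to 14918862, - strand), gave 3125 UMIs in neurons, 40.1% of them in NP1 and 34.5% in PEP. The level was 62.0 ± 8.28 CPM in NP1, 48.9 ± 4.88 in NP2, 47.0 ± 17.4 in PEP, 19.6 ± 4.86 in cluster 7, 18.9 ± 4.44 in NP3 and 17.8 ± 1.26 in TH. Neighbours in this order overlapped over mice. Cluster 19 ranged from 6.63 to 149 CPM, with the highest value in mouse 654. NF neurons were near 0, at 0.316 ± 0.30 CPM, and the Pvalb-led cluster 10 had 0 UMIs in 683 cells, which allows a share of cells with a UMI of up to 0.439%. A Trpa1 UMI was seen in 32.1% of NP1 cells and 8.58% of PEP cells, but NP1 cells were deeper (median 5982 against 2443 UMIs). Thinned to 1500 UMIs the shares were 9.76 ± 1.09% and 5.53 ± 1.58%, which leaves out 3.97% of NP1 and 13.4% of PEP cells as too shallow. Of all neurons this dropped 24.9% in mouse 670, 15.5% in mouse 654 and at most 0.740% in the others.

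The PEP level came largely from cluster 6, which alone held 661 of the 1078 PEP UMIs of Trpa1. There Trpa1 was 194 and 152 CPM in deficient, 82.7 and 237 in supplemented and 173 and 125 in wild type mice, a mean of 161 ± 53.9. The lowest and the highest value were both from supplemented mice. Clusters 5 and 0 held 41.3 ± 11.6 and 35.4 ± 14.7 CPM, and clusters 8 and 11 held 5.47 ± 4.01 and 2.06 ± 3.28. Single cells of cluster 6 reached 20 Trpa1 UMIs, against at most 6 in NP1. Cluster 6 was thus the highest of the PEP clusters for both Trpv1 and Trpa1. Trpv1 was seen in 68.3% of its 281 cells with a Trpa1 UMI and in 48.0% of its 881 cells without one, although the first set was deeper (median 4046 against 2743 UMIs), and the part of depth was not tested.

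**Figure D3:**
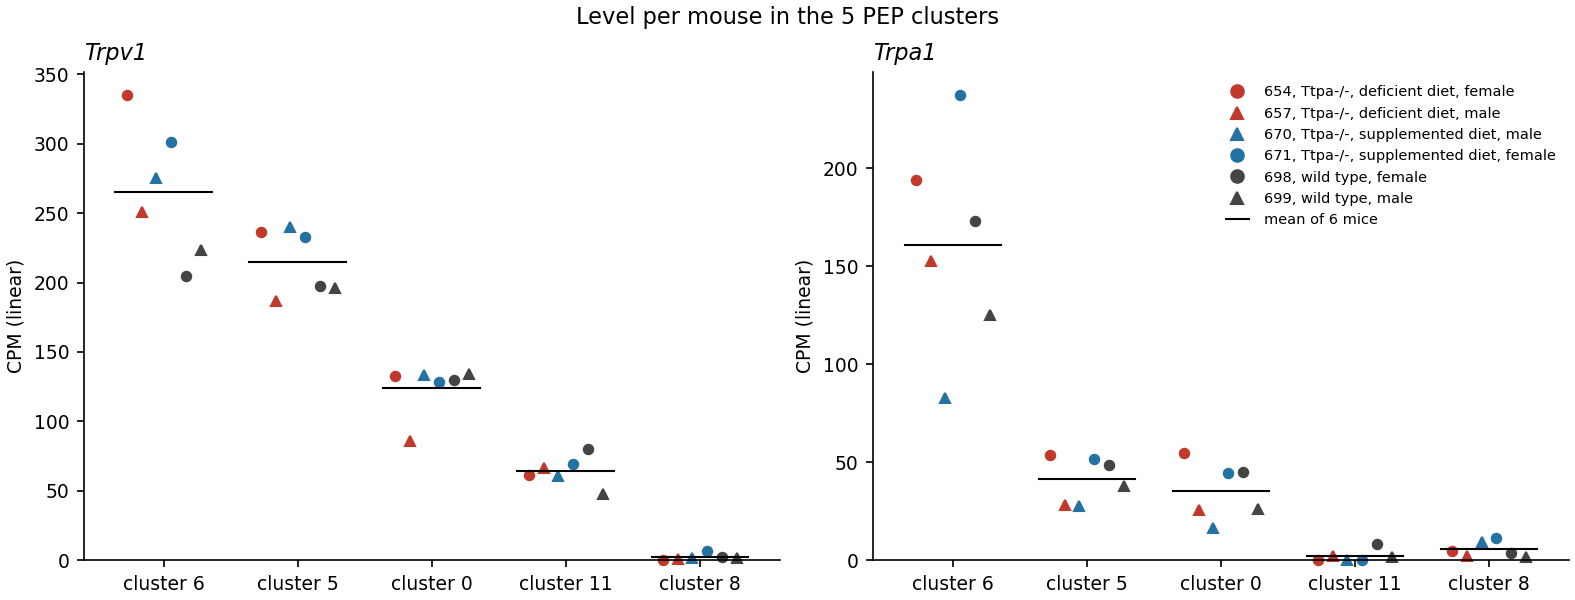
CPM per mouse (linear axes starting at 0) of Trpv1 and Trpa1 in the 5 PEP clusters, with circles for females, triangles for males, a colour per group and a line at the mean of 6 mice. Both genes are highest in cluster 6, Trpv1 is near 0 in cluster 8, and the 3 females lie above the 3 males for Trpa1 in clusters 6, 5 and 0.

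Trpm2, a channel gated by ADP-ribose and oxidative stress and linked to warmth (chromosome 10, 77907722 to 77970563, - strand), was concentrated in NP3 itch neurons. Of its 1019 neuronal UMIs, 510 came from this class, which held 9.10% of neurons. By mouse the NP3 level was 69.9 and 77.4 CPM in deficient, 75.4 and 75.3 in supplemented and 47.6 and 112 in wild type mice. The wild type mice held both the lowest and the highest value. Next in order were the small unnamed clusters 19 and 18, with 15 Trpm2 UMIs each. Cluster 19 held 23.0 ± 25.2 CPM, from 0 to 60.5, which overlapped NP3, and cluster 18 held 20.6 ± 6.20. Trpm2 was 12.8 ± 1.65 CPM in PEP, 8.88 ± 2.47 in NF and 4.18 ± 1.15 in cluster 7, and under 0.7 CPM on average in NP1, NP2 and TH. A Trpm2 UMI occurred in 22.0% of NP3 cells and 0.423% of the deeper NP1 cells.

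Trpm3, a heat channel that pregnenolone sulphate opens (chromosome 19, 22139046 to 22995410, + strand), gave 488 UMIs, 51.2% of them in PEP. Clusters 6 and 0 stood at 16.3 ± 6.16 and 16.0 ± 3.84 CPM, and the range of cluster 0 did not overlap that of the next cluster, 5, at 8.69 ± 2.01. NP3 was at 8.33 ± 3.36, NP1 at 5.31 ± 1.16 and TH at 0.881 ± 0.681 CPM. Trpc6, a diacylglycerol-gated channel (chromosome 9, 8544142 to 8680741, + strand), had 163 UMIs, of which 63.8% were in NP1. Its level was 5.13 ± 0.619 CPM in NP1, 4.10 ± 2.32 in NP2, 3.08 ± 2.77 in cluster 7 and 3.07 ± 0.660 in NP3. Neighbours in this order overlapped, and NP1 lay above NP3 in all 6 mice. It had 0 UMIs in PEP and TH, and in 6971 PEP cells this allows a share of cells with a UMI of up to 0.043%.

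Trpv2 (chromosome 11, 62574486 to 62600515, + strand) ranged from 8.14 ± 3.20 CPM in cluster 8 to 35.1 ± 7.67 in the NP1 cluster 16. It stood at 30.8 ± 6.04 CPM in NP1, 29.1 ± 5.61 in NP3, 21.4 ± 3.49 in TH, 14.4 ± 1.54 in PEP and 13.4 ± 3.21 in NF. PEP, the named class richest in Trpv1, was among the lowest in Trpv2, but NP3 was high and NF lowest in both. The Pearson correlation of Trpv1 with Trpv2 over the 20 clusters was 0.07, in log2(CPM + 5). Trpc1 (chromosome 9, 95705082 to 95750375, - strand), which can assemble with other TRPC subunits, was highest in the Pvalb-led cluster 10. There it was 62.9 and 57.4 CPM in deficient, 54.3 and 58.2 in supplemented and 48.3 and 48.2 in wild type mice. Both wild type mice were lowest, a description, since the share of all genes with such an order is not given. The cluster next in order, 9, was at 36.1 ± 14.2 CPM and overlapped it, and TH cluster 3 was lowest at 12.1 ± 3.35. Trpm7 (chromosome 2, 126791565 to 126876230, - strand), the channel-kinase, ran from 13.1 ± 5.45 CPM in cluster 16 to 40.7 ± 12.8 in cluster 10. Genes annotated on the other strand overlap Trpm8, Trpm3, Trpm7 and Trpc6, and the sources used here do not say whether counting used strand.

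By pattern over the 20 clusters, the genes most like each member were found among 12180 genes by Pearson correlation of log2(CPM + 5), as a description that rests on clusters of the same libraries. Trpv1 was most like Gfra3 (r = 0.92), which encodes the artemin receptor of nociceptors, then Msantd1 and Il13ra1. Trpa1 was most like Stard13, Gtf3a and Celf6 (r from 0.86 to 0.88), and Trpm2 like Herc1, Adcy2 and Sowahc (0.87 to 0.88). Trpc6 was most like A3galt2, Gm15675 and Ctxn3 (0.92 to 0.96), and Trpm7 like Mbtps2, Purb and Larp4 (0.94 to 0.96). For Trpv2 they were 2010320M18Rik, Gnl3 and Rsbn1l (0.83 to 0.88), for Trpm3 Cep112, Stat2 and Timeless (0.83 to 0.86) and for Trpc1 Dnajb2, Gpr22 and Ppm1a (0.80 to 0.84). Trpm8 was most like Cpxm2, Fmod and Dlx4, where the correlation rests on cluster 18 alone. Among the members themselves the closest pair was Trpv1 and Trpm2 (r = 0.67), and the most opposed was Trpm7 and Trpc6 (r = -0.69).

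Of the TRP genes outside the 9, Trpm6 and Trpc4 are described here, chosen after their values were seen. Trpm6, the closest relative of Trpm7, was 18.1 ± 5.15 CPM in NP3 and under 0.6 CPM in the other 5 named classes. Trpc4 reached 19.3 ± 7.06 CPM in cluster 6 and 33.7 ± 14.1 in cluster 19. Among the named classes it was 4.72 ± 1.77 CPM in PEP, 4.49 ± 1.64 in TH and 1.94 ± 0.602 in NP1. It was near 0 in NP2, NP3 and NF, at 0.477, 0.115 and 0.0963 CPM on average. Of its 107 UMIs in PEP, 79 came from cluster 6.

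None of the 9 genes passed the test between the groups. In all neurons 8 of the 9 had enough counts to be tested (Trpm8 did not), and edgeR's quasi-likelihood test with Benjamini-Hochberg adjustment over 13361 genes called 0 of them in deficient against wild type, supplemented against wild type or deficient against supplemented mice. Of all genes tested, 0% were called in each of these 3 comparisons, so the members' count does not set them apart. At an unadjusted p under 0.05 there were 516, 512 and 341 genes of 13361, and 1, 0 and 0 of the 8 members. Of all genes, edgeR without the low-count filter called 81, 120 and 23, DESeq2 1, 12 and 0 and limma-voom 0, 0 and 0, none of them a member. Within the 9 classes and unnamed clusters 40 of 81 possible tests could be made per comparison, and 0 members were called where 0.0231%, 0.0405% and 0.00723% of all tests were. Within the 20 clusters 77 of 180 were made, again with 0 called, against 0.0244%, 0.0606% and 0.00887% of all tests.

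For Trpv1 in neurons the levels were 55.1 and 42.3 CPM in deficient, 52.3 and 56.6 in supplemented and 54.7 and 44.5 in wild type mice, and all groups overlapped. Deficient minus wild type was -0.04 ± 0.16 (log2 fold ± SE, 95% interval -0.38 to 0.30), and supplemented minus wild type was 0.10 ± 0.16. For Trpa1 the values were 39.7 and 30.9 CPM in deficient, 31.9 and 36.8 in supplemented and 38.4 and 23.0 in wild type mice, with a deficient minus wild type difference of 0.19 ± 0.21 (interval -0.28 to 0.65). Both intervals lie within a log2 fold of 1 in either direction. Trpv2 differed by 0.22 ± 0.16, Trpm2 by -0.15 ± 0.22, Trpm3 by 0.04 ± 0.22, Trpm7 by -0.03 ± 0.16 and Trpc1 by -0.05 ± 0.13, each with an interval that includes 0.

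**Figure D4:**
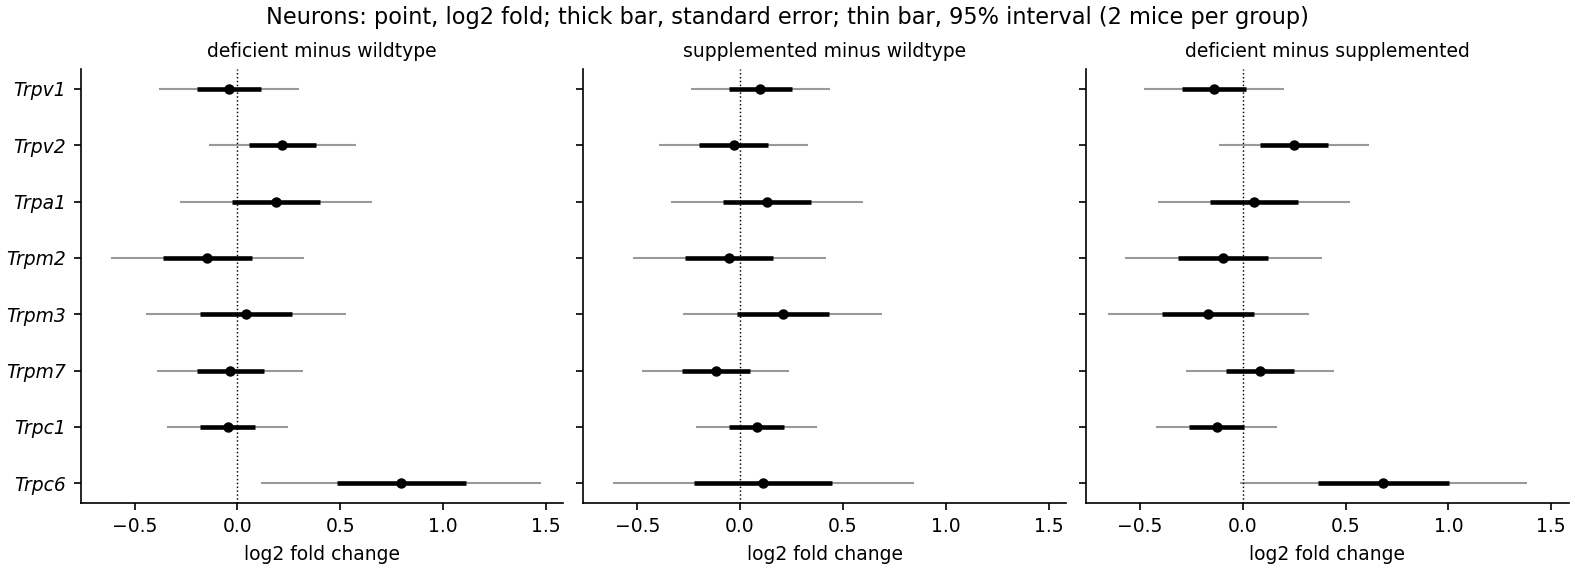
Log2 fold change of the 8 TRP genes tested in neurons for 3 group comparisons, with 2 mice per group; points are folds, thick bars standard errors and thin bars 95% intervals of the edgeR fit. Every interval includes 0 except that of Trpc6 in deficient minus wild type mice, whose adjusted p is 0.992.

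Trpc6 had the largest fold, at 2.72 and 2.09 CPM in deficient, 1.67 and 1.37 in supplemented and 1.54 and 1.18 in wild type mice. Both deficient mice lay above the other 4, a description, since the share of all genes with such an order is not given. The deficient minus wild type difference was 0.80 ± 0.31 (edgeR, adjusted p = 0.992), the 1 member with an unadjusted p under 0.05. NP1 neurons, the main source of Trpc6, gave 30.4% and 21.4% of the neuronal UMIs in deficient, 28.9% and 21.8% in supplemented and 17.9% and 12.6% in wild type mice. Within NP1 the Trpc6 difference was 0.08 ± 0.36 (edgeR, adjusted p = 0.9997). With every neuron cluster at equal weight it was 0.65. Leaving out single mice gave 0.25 without 654, 0.97 without 657, 0.76 without 698 and 0.55 without 699. These equal-weight values were computed after the data were seen and with no test.

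Among classes, 1 of 40 member tests (2.5%) had an unadjusted p under 0.05 in deficient against supplemented mice, against 3.42% of all tests. In deficient and in supplemented against wild type mice it was 0 of 40, against 2.91% and 4.28% of all tests. These shares are below the background, so the values of the 1 result are a description. That result was Trpm2 in NF neurons. It was 6.13 and 7.02 CPM in deficient, 12.9 and 10.2 in supplemented and 9.26 and 7.73 in wild type mice, and deficient minus supplemented was -0.75 ± 0.35 (edgeR, adjusted p = 0.9996). In NP3, where Trpm2 is highest, the same difference was -0.06 ± 0.27. Among the 3 comparisons in single clusters, 9 of 231 member tests had an unadjusted p under 0.05, and the lowest adjusted p was 0.798. That is 3.90% of the member tests in each comparison, against 3.58%, 4.68% and 3.94% of all tests, a share near the background, so the cluster values that follow are descriptions. Trpv1 in cluster 6, whose values are given above, was 0.39 ± 0.20 higher in deficient and 0.41 ± 0.20 higher in supplemented than in wild type mice (edgeR, adjusted p = 0.9999 and 0.9997). The 2 differences share the wild type mice. In the neighbouring PEP clusters 5 and 0 the wild type values (197 and 196 CPM, 130 and 134 CPM) overlapped those of the Ttpa-/- mice, and mouse 699 had the highest value in cluster 0. Trpc1 in the Calb1-led NF cluster 9 was 50.4 CPM on average in supplemented and 24.2 in wild type mice, with a difference of 0.85 ± 0.30 (edgeR, adjusted p = 0.9997).

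Trpa1 in PEP separated by sex in these 6 mice. This comparison of 3 females with 3 males, with the group as a term, was added after the values by mouse were seen. In PEP, Trpa1 was 60.4, 70.2 and 53.4 CPM in the females (deficient, supplemented, wild type) and 41.2, 23.7 and 33.3 CPM in the males of the same groups. Every female lay above every male. The share of all genes that separate in this way is not given, so the separation is a description. The difference was 0.86 ± 0.17 (log2 fold, female minus male, 95% interval 0.51 to 1.22), with an edgeR adjusted p of 0.0975, which misses the threshold of 0.05. It ranked 9th of 11286 genes by p in PEP, just after the 8 genes called there. No member was called by edgeR in neurons, in classes or in clusters, where 0.0674%, 0.081% and 0.0902% of all tests were, and 2 of 8, 3 of 40 and 4 of 77 member tests had an unadjusted p under 0.05, against 2.69%, 4.20% and 4.52% of all tests. With the group as a term a left-out mouse takes its group out of the comparison. Without mouse 670 or 671 the difference was 0.56 ± 0.17 (edgeR, adjusted p = 0.0781 and 0.0785), and DESeq2 gave an adjusted p of 0.488.

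The female values were the higher ones in each of the 3 Trpa1-rich PEP clusters. Clusters 6, 5 and 0 held 661, 196 and 188 of the 1078 PEP UMIs of Trpa1. They are thus parts of the PEP result in the same mice and do not repeat it independently. In cluster 6 the females had 194, 237 and 173 CPM and the males 152, 82.7 and 125 (0.70 ± 0.18, edgeR adjusted p = 0.135). In cluster 0 they had 54.7, 44.3 and 45.2 against 25.7, 16.7 and 26.1 CPM (1.03 ± 0.24, edgeR adjusted p = 0.0549). In cluster 5 they had 53.7, 51.4 and 48.6 against 28.2, 27.8 and 38.0 CPM (0.68 ± 0.22, edgeR adjusted p = 0.9997). No female overlapped a male in any of these 3 clusters, again with no share over all genes given. In NP1 the females had 60.6, 57.9 and 75.8 and the males 60.5, 66.1 and 51.3 CPM, which overlapped, and the difference was 0.11 ± 0.13. The 3 NP1 clusters differed in direction, with 0.28 ± 0.15 in cluster 1, -0.30 ± 0.22 in cluster 16 and -0.36 ± 0.26 in cluster 17, the female being the lower in 3 of 3 groups in the last 2 (edgeR, lowest adjusted p = 0.942). The log2 ratio of PEP to NP1 per mouse was -0.08 ± 0.40 in females and -0.89 ± 0.51 in males (n = 3 each). The lowest female value (-0.507, mouse 698) lay close to the highest male value (-0.553, mouse 657). An exact two-sided permutation test that ignored the groups gave p = 0.1, the smallest that 3 against 3 allows. This ratio was taken from values already seen, so the p-value is not separate support.

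Satellite glia markers (8 of 8 detected) were also higher in the female of each group in PEP, at 1182, 1841 and 1206 CPM against 887, 1548 and 880 in the males, and in NP1 at 670, 923 and 609 against 568, 878 and 588. Their part in the Trpa1 difference was not tested. Cluster 6 made up 4.01%, 6.27% and 6.21% of the neurons of the females and 7.25%, 4.15% and 6.23% of those of the males, and these ranges overlapped. Trpv1 in PEP differed by 0.26 ± 0.11 (edgeR, adjusted p = 0.672), with the female higher in 3 of 3 groups. Trpm2 in NP3 was lower in the female in 3 of 3 groups, with a difference of -0.48 ± 0.19 (edgeR, adjusted p = 0.933). By the NP3 values given above, the supplemented female and male were almost equal and the wild type mice differed most.

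**Figure D5:**
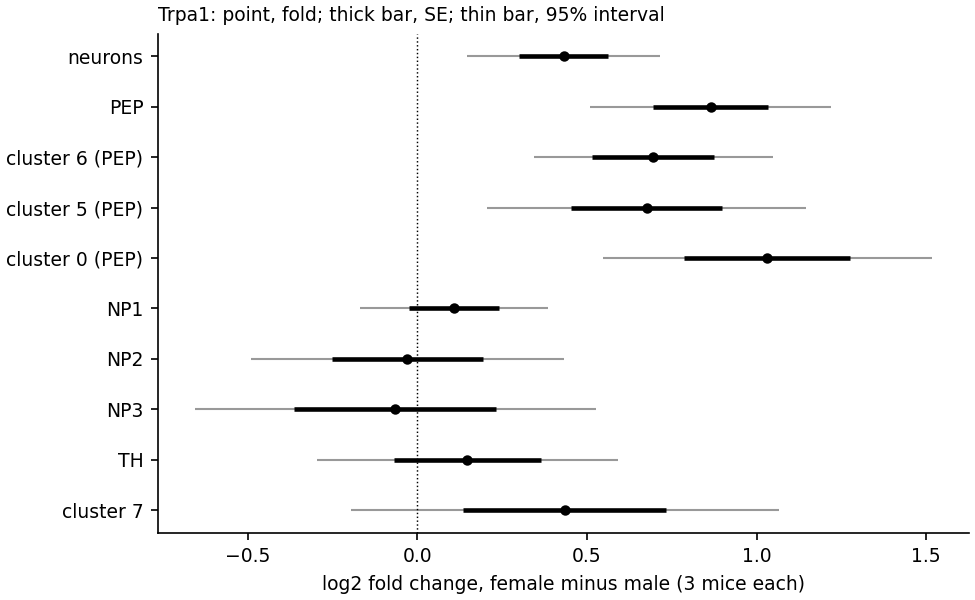
Log2 fold change of Trpa1, female minus male (3 mice each), in neurons, classes and the 3 Trpa1-rich PEP clusters; points are folds, thick bars standard errors and thin bars 95% intervals of the edgeR fit with the group as a term. The intervals of neurons, PEP and its clusters 6, 5 and 0 lie above 0, and those of NP1, NP2, NP3, TH and cluster 7 include 0.

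Genes related to these channels passed no test in neurons either. Of 20 other TRP family genes 10 could be tested, and 0 were called in deficient against wild type mice. Their median log2 fold was 0.12, with 7 of 10 positive, against -0.01 and 48.1% over all genes. Trpc5 differed by 0.64 ± 0.38, Pkd1 by -0.31 ± 0.16 and Trpc4 by -0.09 ± 0.24. Of 33 receptors, kinases and partners that modulate TRP channels, 30 were tested and 0 called, with a median of -0.01 and 14 positive. Tmem100, an adaptor that links TRPA1 with TRPV1, differed by -0.43 ± 0.14 and the prostaglandin receptor gene Ptger1 by -0.44 ± 0.17. Prkca and Plcb3, a kinase and a phospholipase of TRP sensitisation, differed by 0.34 ± 0.16 and 0.33 ± 0.16. Of 15 other temperature-related channels 13 were tested and 0 called, with a median of 0.05 and 7 positive, and the named ones were Orai1 (0.23 ± 0.13), Scn11a (0.30 ± 0.21), Kcnk2 (-0.28 ± 0.15) and Kcna1 (-0.27 ± 0.26). The edgeR adjusted p was 0.992 for each gene named in these lists. At an unadjusted p under 0.05 there were 1, 2 and 0 genes in the 3 lists.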

How the data were processed

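The authors deposited UMI counts per gene and cell in 1 table of 27998 genes. The submitters' processing notes name bcl2fastq 2.17.1.14, Cell Ranger 2.0.1, Seurat 2.3.0, limma 3.32.10 and mm10, and per the labels' protocols the libraries were 3' droplet libraries. How cells entered the table was not stated. Each cell was assigned to a mouse by its column name. Cells under 500 genes or over 20% mitochondrial UMIs were dropped (27 cells), as were the highest scrublet scores of each mouse (634 cells). Leiden clusters (scanpy 1.11.5, resolution 1, 30 components, 15 neighbours) could take the name of a set by 3 or more of its markers. A marker counted if found in at least 5% of cells and at least 1.5 times as high as in other cells (CPM + 5). Neuron names also needed 10 pan-neuronal markers, each in at least 25% of cells. A cluster stayed unnamed if its 10 leading genes held more markers of another set, or if it was shallow and they held none of its own. UMI sums per mouse were tested with edgeR 4.0.16 (TMM, filterByExpr, quasi-likelihood, Benjamini-Hochberg over all genes of a unit, threshold 0.05) in units holding at least 20 cells of each mouse. SE is the fold divided by the square root of F. The labels give 1 library per mouse, so p-values refer to the spread between these mice. edgeR pools that spread over genes, with 11.8 total degrees of freedom for Trpa1 in neurons and 20.7 in PEP. Its SEs, intervals and p-values thus rest in part on the spread of other genes, not only on the gene's own. Depth was 12538785 to 19383933 UMIs per library. Limits from counts of 0 (3 counts) cover counting error only. The fits were tested on simulated data. Text names the 9 genes, up to 2 genes per direction of each list by smallest p in deficient against wild type neurons, and the 3 genes most like each member, with 1 gene that this rule selects not reported here. Trpm6, Trpc4 and single cluster results were chosen after their values were seen. The members and lists were chosen with earlier results of these data known. Alternatives were DESeq2 1.42.0 and its RLE factors, limma-voom 3.58.1, no filter on low counts, sex as a term, thinned sums, leaving out single mice, keeping doublets, a cell filter of 1000 genes and 10% mitochondrial UMIs, and gating single cells by markers.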

Additional observations from a re-analysis of the deposited data

How the results depend on the processing

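No member was called in neurons or classes in any of the 3 group comparisons under any of the 14 alternatives in neurons and 15 in classes, with the lowest adjusted p at 0.422. Of 2016 values so recomputed, 191 (9.47%) changed sign, all of them of uncalled differences, and 124 moved by more than 1 SE. Over all genes in neurons, where edgeR called 0 in each comparison, it called 81, 120 and 23 with no low-count filter, a fit with 57924 total degrees of freedom against 11.8. DESeq2 called 1, 12 and 0, and leaving out mouse 654 gave 1, 6 and 0. No paired analysis was possible because the groups share no replicate numbers. Each group has 1 mouse of each sex, and with sex as a term 0 members were called, while over all genes the NP1 count in supplemented against wild type went from 12 to 26. The comparison of females with males was less stable, and its alternatives were all chosen after the data were seen. Its count of members called in classes was 0 and became 1, Trpa1 in PEP, with no low-count filter, with UMI sums thinned to the smallest mouse, with doublets kept and with the stricter cell filter, and lay between 0 and 1 with each mouse left out (1 without 654, 698 or 699). In neurons it lay between 0 and 1 with each mouse left out, with Trpa1 called without mouse 670 or 671. Trpa1 in PEP was higher in females under 15 of 15 alternatives (log2 fold 0.56 to 1.07, adjusted p 1.53e-06 to 0.704) and was called under 7. Cells gated one by one gave the 0.704. That gate kept 4 to 25 NP1 cells per mouse and 0 NP2 cells. It moved Trpc6 in NP1 from 5.13 to 29.2 CPM, Trpv1 in NF from 1.19 to 7.31 CPM and Trpa1 in NF from 0.316 to 5.09 CPM, and the cause was not tested. Trpm8 was tested only without the low-count filter, and was not called.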
